A study of Mus musculus with 12 samples.

Results

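Mammalian apparent LTR retrotransposons (MaLRs) are the old, non-autonomous relatives of the endogenous retrovirus ERVL. Their internal sequence carries no retroviral genes, so that a copy consists of a pair of long terminal repeats (LTRs), which hold the promoter and the polyadenylation signal, around an internal part that codes for nothing known. Most copies in the genome are solitary LTRs. The MT and ORR1 classes are restricted to rodents and are known for transcription in growing oocytes and early embryos, where their LTRs also serve as promoters of host genes. MLT1 is the oldest branch and is shared by placental mammals. MaLRs are set here beside the question the study put to retroelements, namely whether TET2 catalysis and the pluripotent state set their transcript levels once SETDB1, the H3K9 methyltransferase that silences many LTR elements in embryonic stem cells (ESCs), is depleted.

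Members were taken by name from the table of repeat classes, as every row that begins with ORR1, MTA, MTB, MTC, MTD, MTE, MLT1, MST or THE1. This gave 100 of 1217 rows, of which 49 were LTRs and 51 were internal parts, marked by the ending -int. There were 25 ORR1 rows, 19 rows from MTA to MTE and 56 MLT1 rows, and 0 rows with an MST or THE1 name. A row sums the reads over all copies of a class, so that a change in a few copies and a change in many cannot be told apart, and a read that matched several copies equally well was placed on one of them at random, so that closely related classes such as ORR1A0 and ORR1A1 can share reads.

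The 12 libraries were made from poly(A) RNA of mouse ESCs in which both the genotype and the knockdown were common to all. Every culture descended from a Tet2 knockout line, made by removing an exon of the gene, and carried a stably inserted transposon construct for either WT TET2 or a catalytic mutant of it. Every culture was infected with a lentiviral shRNA against Setdb1 (shSetdb1). Infected cells were selected with puromycin or hygromycin before collection, and the methods do not say which was used for these lines. Cells were grown without feeders in 2i medium (naïve ESCs) or in serum medium (primed ESCs), which gave 4 groups of 3 libraries, namely naïve WT, naïve mutant, primed WT and primed mutant. Libraries with another shRNA were not analysed here, so the effect of SETDB1 depletion itself is not measured, and the labels name no more than 1 line for each rescue. The labels do not say that libraries of a group came from separate cultures, so that p-values measure the spread between these libraries, which may be technical.

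All levels are the deposited variance-stabilised values (log2), in which a class with no reads has the level 2.51 and differences between classes with few reads are compressed. Setdb1 transcripts were low but present in every library, with 114 to 585 reads. Tet2 transcripts, which sum the knockout allele and the construct, lay at 13.27 ± 0.65 (SD, n = 3) in naïve WT, 11.12 ± 0.72 in naïve mutant, 14.83 ± 0.26 in primed WT and 12.99 ± 0.43 in primed mutant libraries. Tet2 was thus higher in the WT line by 2.16 (SE 0.34, limma adjusted p = 0.0154) in naïve and by 1.84 (SE 0.34, limma adjusted p = 0.0297) in primed ESCs, so the catalytic state of TET2 and the amount of its transcript cannot be told apart in any WT to mutant comparison. For the protein, the paper reports similar amounts of WT and mutant TET2 in the rescue lines by Western blot. Protein was not measured in these libraries. Of the markers fixed for ESCs in serum, Dnmt3l had a naïve minus primed difference of -5.18 (SE 0.17, limma adjusted p = 3.14e-12), Dnmt3b and Otx2 were lower too, and Lefty1 and Lefty2 were higher in naïve ESCs. Of the markers fixed for ESCs in 2i, 1 of 3 tested genes was higher in naïve ESCs at an adjusted p under 0.05 (limma) and 0 were lower. Of 7 tested pluripotency genes 2 were higher and 1 was lower. Of all genes tested, 26.4% were higher and 25.4% lower.

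MaLR transcripts were detected throughout. The 100 classes held 45518 to 131986 reads per library, which was 0.516 to 2.41% of all reads assigned to repeats, and 3.57 to 4.68% once the ribosomal RNA (rRNA) classes were left out. Without rRNA classes the share was 3.70% ± 0.156 (SD, n = 3) in naïve WT, 4.19% ± 0.437 in naïve mutant, 3.84% ± 0.199 in primed WT and 4.26% ± 0.113 in primed mutant libraries. The mean was higher in the mutant line in both media. The primed lines did not overlap (3.63 to 4.03% in WT and 4.13 to 4.33% in mutant libraries), while the naïve lines did. The total also counts other repeat classes, which can differ between the lines. The retroviral internal part IAPEz-int, for example, had mean levels of 17.56 in naïve WT and 16.38 in naïve mutant libraries. In primed ESCs these were 16.54 in WT and 14.78 in mutant libraries. Neither the difference in MaLR share nor the part of such classes in it was tested. Of the 100 classes, 85 had a mean at least 1 above the lowest level and were tested. The remaining 15 were all MLT1 internal parts with at most 9 reads in any library, of which 4 (MLT1E1-int, MLT1K-int, MLT1L-int and MLT1N2-int) had 0 reads in all 12.

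From each subgroup the class with the highest mean value over the 12 libraries was taken as an example. Values are sums over copies and were not divided by length, so that this choice says nothing of which class is transcribed most per copy or per base. Within ORR1A this was the LTR ORR1A2 (2141 to 5772 reads per library), within ORR1B it was ORR1B1 (1647 to 5417 reads), and within ORR1C to ORR1E it was ORR1E (1496 to 5158 reads). Within the MT classes it was the internal part MTA_Mm-int (3077 to 9863 reads) for MTA, and the LTRs MTB (1883 to 6559 reads), MTC (2823 to 7447 reads), MTD (3792 to 11951 reads) and MTE2a (1375 to 3831 reads) for the others. MTC LTRs are known as the promoters of an oocyte form of Dicer. Within MLT1 it was MLT1A1, with 324 to 1951 reads, which holds for the naïve libraries and not for the primed ones, where MLT1D, MLT1B, MLT1C, MLT1A0 and MLT1K had higher mean values.

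The library numbered 3 stood apart in each group, and this bears on every comparison below. Its level was the highest of the 3 for 73 of 85 MaLR classes in naïve WT, 78 in naïve mutant, 70 in primed WT and 80 in primed mutant ESCs, and for 59 of 85 classes in all 4 groups. The median deviation of the MaLR classes from their group mean in these libraries was 0.38, 0.33, 0.24 and 0.51, against 0.36, 0.29, 0.24 and 0.47 for the other repeat classes tested. The rRNA classes took 37.7% of repeat reads in naïve WT library 3 and 46.7% in primed mutant library 3, against 68.8 to 88.1% in the others. The size factors behind the deposited values, by which reads are divided, were 0.79, 1.50, 1.68 and 0.74 in the libraries numbered 3. Medians of ratios of the recovered reads gave 1.14, 1.97, 2.03 and 1.14 for the same libraries. In all other libraries but naïve WT 1 the deposited factor was the larger one. The part of the rRNA share and of these factors in the deviations was not tested. MTB did not follow the pattern and was the single class with library 3 highest in 0 of the 4 groups. Its level was 11.28 in naïve WT library 3 and 11.32 in primed mutant library 3, against 11.36 to 12.24 in the other 10 libraries.

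**Figure D1:**
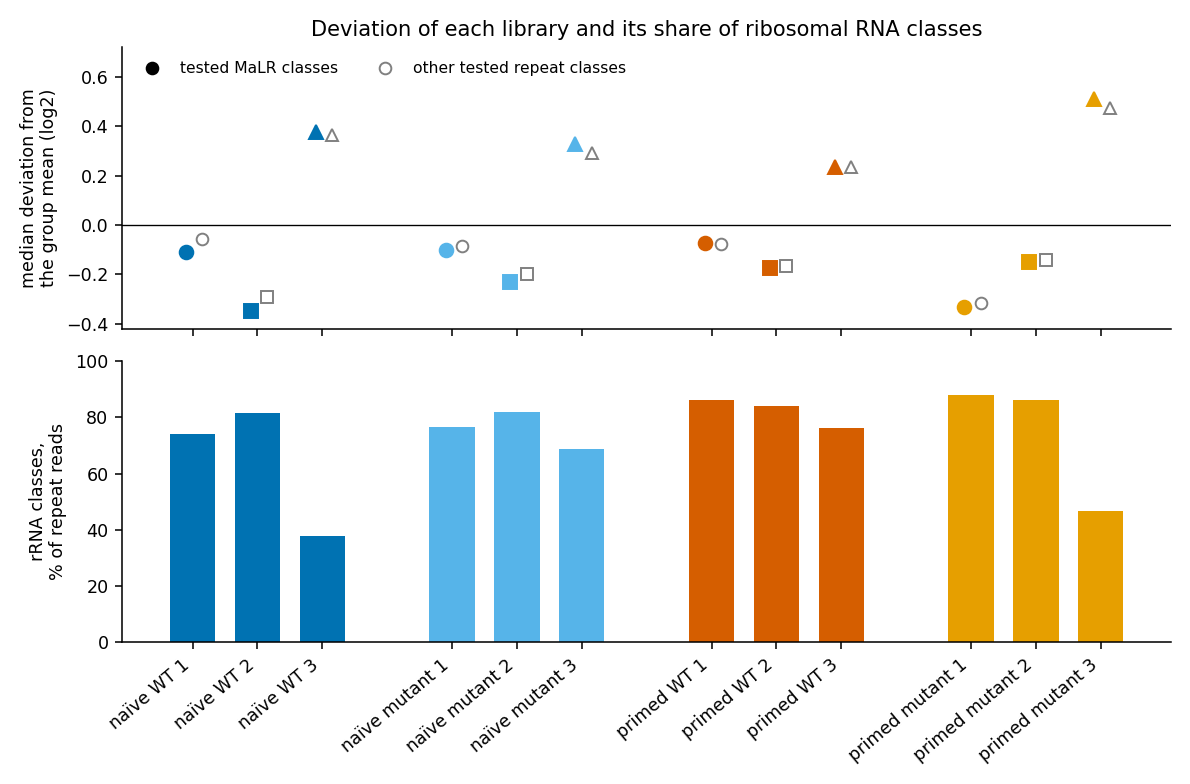
Upper panel, median deviation (log2) of the 85 tested MaLR classes (filled) and of the other tested repeat classes (open) from their group mean in each of the 12 libraries. Lower panel, share of repeat reads in rRNA classes (%). The library numbered 3 lies above 0 in all 4 groups, between 0.24 and 0.51 for the MaLR classes, and the rRNA share is lowest in naïve WT library 3 (37.7%) and primed mutant library 3 (46.7%).

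Naïve and primed ESCs were compared first over both rescue lines. MLT1A1 LTR transcripts were 1.32 higher (log2, SE 0.21) and MLT1F-int transcripts 1.11 higher (SE 0.23) in naïve ESCs, while the MT and ORR1 classes did not pass the test on the values as deposited. A class was called where its adjusted p lay under 0.05 (limma, Benjamini-Hochberg over 939 repeat classes) and its difference exceeded 1. Of the 85 classes 2 were called, against 4.05% of all repeat classes tested (2.88% higher and 1.17% lower in naïve ESCs). At the adjusted p alone 4 classes passed and all were higher in naïve ESCs, against 7.24% of all repeat classes, 5.01% higher and 2.24% lower. These 4 were MLT1 classes, 1 of 28 LTRs and 3 of 13 tested internal parts, and 0 of 44 MT and ORR1 classes were among them. The share of MaLR classes that passed, 4.71%, was thus no higher than that of all repeat classes. Markers of other cells moved with the medium as well. Of the trophoblast list, Gata3 (0 to 267 reads, -3.09, SE 0.13, limma adjusted p = 3.51e-11) and Eomes (-1.51, SE 0.13, limma adjusted p = 6.89e-08) were higher in primed ESCs, where Elf5 reached 8 reads, and the list summed to 20 to 572 reads over the libraries. The primitive endoderm list summed to 38 to 124 reads, and of its 3 tested genes Dab2 (0 to 45 reads, -1.16, SE 0.17, limma adjusted p = 3.61e-05) was higher in primed ESCs, while Gata4 and Sox17 did not pass. The mesoderm and fibroblast list summed to 1426 to 5612 reads, most of them from Vim, which ESCs also transcribe (1412 to 5585 reads). Of its 2 tested genes, Thy1 (8 to 100 reads, 1.13, SE 0.15, limma adjusted p = 1.05e-05) was higher in naïve ESCs and Vim did not pass, and of its other 5 genes Col1a2 and Col3a1 had 0 reads in every library. The part of such cells in the MaLR values was not tested. In these bulk libraries, more cells that transcribe a class and more transcripts per cell cannot be told apart.

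MLT1A1, an LTR class, had levels of 10.57, 9.83 and 10.62 in naïve WT, 10.13, 10.13 and 10.35 in naïve mutant, 8.81, 8.65 and 9.06 in primed WT, and 8.69, 8.86 and 9.66 in primed mutant libraries. The naïve and primed libraries did not overlap, as for 3 of 85 MaLR classes and 4.26% of all repeat classes tested. Primed mutant library 3 lay nearest to the naïve ones. The difference of 1.32 had an adjusted p = 0.000178 (limma) and ranged from 1.22 to 1.47 when each library was left out. It passed in each line on its own, with 1.50 (SE 0.30, limma adjusted p = 0.00538) in the WT line and 1.14 (SE 0.30, limma adjusted p = 0.0346) in the mutant line, and these differences did not differ detectably (0.36, SE 0.42, limma adjusted p = 0.998). The mutant-line call was lost without each naïve mutant library, primed mutant library 1 or 2, or primed WT library 1 (adjusted p up to 0.206), and the WT-line call was lost without naïve WT library 1 or primed WT library 2 (up to 0.0538), although the differences remained at 0.95 or above.

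MLT1F-int, an internal part, had 31, 81 and 75 reads in naïve WT, 51, 41 and 89 in naïve mutant, 18, 24 and 45 in primed WT, and 9, 21 and 18 in primed mutant libraries. Its levels were 5.71, 6.48 and 6.73, then 5.86, 5.76 and 6.13 in the naïve groups, and 5.12, 5.27 and 5.22, then 4.35, 4.95 and 5.12 in the primed groups, again without overlap. The difference of 1.11 had an adjusted p = 0.00232 (limma) and lay between 0.99 and 1.26 with each library left out, falling under the limit of 1 without primed mutant library 1. It was 1.10 in the WT line and 1.11 in the mutant line, where it did not pass (limma adjusted p = 0.0791 and 0.0652).

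Another pair of internal parts passed at the adjusted p alone. MLT1D-int had 26 to 66 reads in naïve and 11 to 36 in primed libraries, and levels of 5.25 to 6.22 (median 5.69) against 4.52 to 5.17 (median 4.81), which did not overlap. It was higher in naïve ESCs by 0.92 (SE 0.22, limma adjusted p = 0.0102). MLT1F2-int was higher by 0.97 (SE 0.27, limma adjusted p = 0.0291), with 26 to 54 reads in naïve and 7 to 57 in primed libraries. Its groups overlapped because primed WT library 3 (level 5.48, 57 reads) and primed mutant library 3 (5.17, 19 reads) lay inside the naïve range from 5.16 to 6.38, and the adjusted p reached 0.119 when single libraries were left out.

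**Figure D2:**
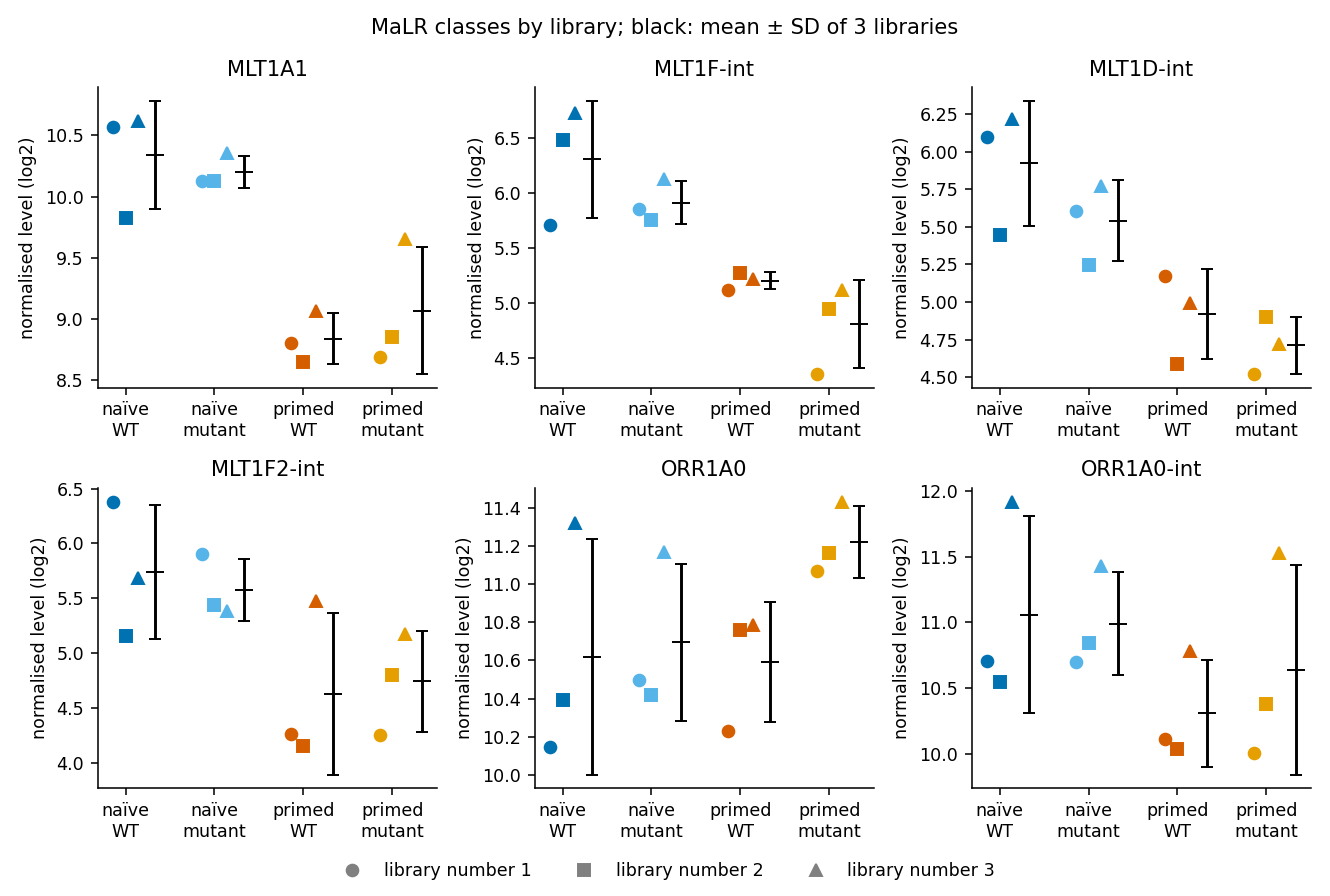
Normalised levels (log2) of 6 MaLR classes in each library by group, with the mean ± SD of 3 libraries in black and a marker shape for each library number. The naïve and primed libraries of MLT1A1, MLT1F-int and MLT1D-int do not overlap, against 4.26% of all repeat classes tested. The mean of ORR1A0 is highest in the primed mutant group, and the naïve and primed libraries of ORR1A0-int overlap, with primed mutant library 3 at 11.53.

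The other classes were spread around 0. The median difference over the 85 classes was 0.03, beside -0.0034 over all 939 repeat classes, and 48 classes lay above 0. Of 19 MT classes 5 lay above 0 (median -0.06, range -0.51 to 0.29), of 25 ORR1 classes 16 (median 0.09, range -0.45 to 0.55), and of 41 tested MLT1 classes 27 (median 0.12, range -0.40 to 1.32). The most negative differences were those of MTE2a-int (-0.51, SE 0.23, limma adjusted p = 0.246), ORR1A2-int (-0.45, SE 0.25, limma adjusted p = 0.404) and ORR1D2-int (-0.44, SE 0.22, limma adjusted p = 0.333), all internal parts. ORR1A1-int (0.55, SE 0.25, limma adjusted p = 0.26) and ORR1A0-int (0.55, SE 0.27, limma adjusted p = 0.308) were the most positive of the rodent classes. The classes that lead the MT subgroups had differences near 0, namely -0.13 for MTA_Mm-int, -0.02 for MTC, -0.0023 for MTD and 0.19 for MTE2a, and MTB had -0.29.

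**Figure D3:**
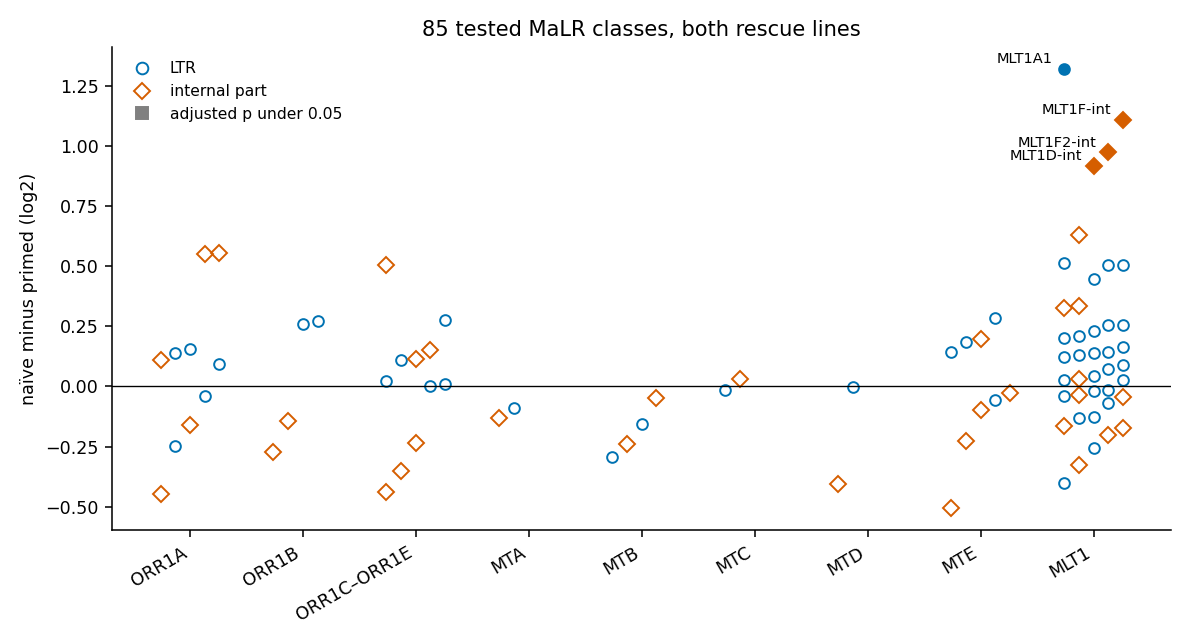
Difference between naïve and primed ESCs (log2, both rescue lines) for each of the 85 tested MaLR classes by subgroup, with LTRs as circles and internal parts as diamonds. Filled symbols passed an adjusted p under 0.05. All 4 lie in MLT1, between 0.92 and 1.32, and the MT and ORR1 classes lie between -0.51 and 0.55.

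Which of these smaller differences passed depended on how the libraries were scaled. Of 6 further fits, 5 rescale whole libraries (centring on the library median, quantile normalization, rescaling of the recovered reads, and voom on those reads with and without rRNA classes). The other fit has a block for the replicate number. The block removes only what same-numbered libraries of a line share. In the mutant line the numbers did not pair the libraries by correlation across classes, which does not register a shift common to all classes. Library 3 of that line was raised in both media, with a median deviation of the MaLR classes of 0.33 in naïve and 0.51 in primed ESCs. These fits passed 13 to 19 of 85 MaLR classes, or 15.3 to 22.4%. Of all repeat classes tested, 20.1% passed with centring, 19% with quantile normalization, 19.3% with rescaling, 18.8% with either form of voom and 19.6% with the block, so that the MaLR share stayed near that of all classes. In all 6 fits the same 11 classes passed, 8 higher and 3 lower in naïve ESCs. The higher ones were the 4 MLT1 classes named above with MLT1K, MLT1G1, MLT1J1-int and ORR1A1-int, and the lower ones were MTE2a-int, ORR1A2-int and ORR1D2-int. ORR1A0-int passed in 5 of the 6, with differences of 0.50 to 0.55. Without the 4 libraries numbered 3, 11 classes passed as higher and 6 as lower, against 21.8% of all classes. The 21 classes that passed in any of the 6 fits had the same sign in each fit that passed them.

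In the WT line alone 1 class was called (MLT1A1), against 2.34% of all repeat classes (1.6% higher and 0.745% lower), and in the mutant line alone 1 class (MLT1A1), against 3.41% (2.34% higher and 1.06% lower). In the repeat table the library numbers paired the libraries of the WT line (correlations of deviations 0.13, 0.16 and 0.30 between naïve and primed), and 4 classes were called there once this number entered the fit as a block, against 4.37% of all repeat classes in that fit. In the gene table the same libraries gave 0.22, 0.14 and -0.02, so that the pairing did not hold there. MLT1F2-int (1.11) and MLT1F-int (1.10) were next to MLT1A1 in the WT line and MLT1F1-int (-0.80), with 1 to 13 reads, was the most negative, followed by MLT1I (-0.47) and MTB (-0.42). In the mutant line the most negative were MTE2a-int (-0.70), ORR1D2-int (-0.59) and ORR1A2-int (-0.56), and none of these values but that of MLT1A1 passed (limma adjusted p from 0.0791 to 0.815).

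LTRs and internal parts of the same name could differ in direction. For each of 33 names with both parts tested, the internal level minus the LTR level was taken within each library. This removes a shift common to the library only where both parts have many reads. Many internal parts have far fewer reads than their LTR, and their differences are compressed, so that a common shift does not fully cancel. How far this shaped the gaps was not tested. The naïve libraries were compared with the primed ones by an exact two-sided permutation test of 6 against 6. Benjamini-Hochberg adjustment was made over the 47 such pairs in the repeat table. The gap differed at an adjusted p under 0.05 for 13 of 33 pairs, 6 with the internal part relatively higher in naïve ESCs and 7 with it relatively lower, against 38.3% of the pairs in the whole table. The share is close to that of the table, of which MaLRs make up most pairs.

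In 5 pairs (MLT1A1, MLT1D, ORR1A0, ORR1B1 and ORR1D2) the gaps of the naïve and primed libraries did not overlap (exact permutation p = 0.00216, adjusted p = 0.0127 each), against 17% of the pairs in the whole table. For ORR1A0 the LTR differed by -0.25 and the internal part by 0.55 between naïve and primed ESCs, and the gap, of which only the change between groups is read, was 0.44 ± 0.24 (SD, n = 3) in naïve WT, 0.29 ± 0.11 in naïve mutant, -0.28 ± 0.38 in primed WT and -0.58 ± 0.61 in primed mutant libraries. MLT1D showed the same direction, with -0.01 for the LTR and 0.92 for the internal part. ORR1B1 (0.26 for the LTR and -0.15 for the internal part) and ORR1D2 (0.01 and -0.44) showed the opposite one. For MLT1A1 the difference lay in the LTR (1.32), while MLT1A1-int, with 3 to 16 reads, differed by 0.33. Differences at so few reads are compressed, so the size of the MLT1A1 gap is not read. The pairs MLT1F, MLT1F2, MLT1J1 and ORR1A1 also had a relatively higher internal part in naïve ESCs (adjusted p from 0.0185 to 0.0339, exact permutation), and MLT1B, MTE2a, ORR1B2 and ORR1C1 a relatively lower one (0.0185 to 0.0396, exact permutation).

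**Figure D4:**
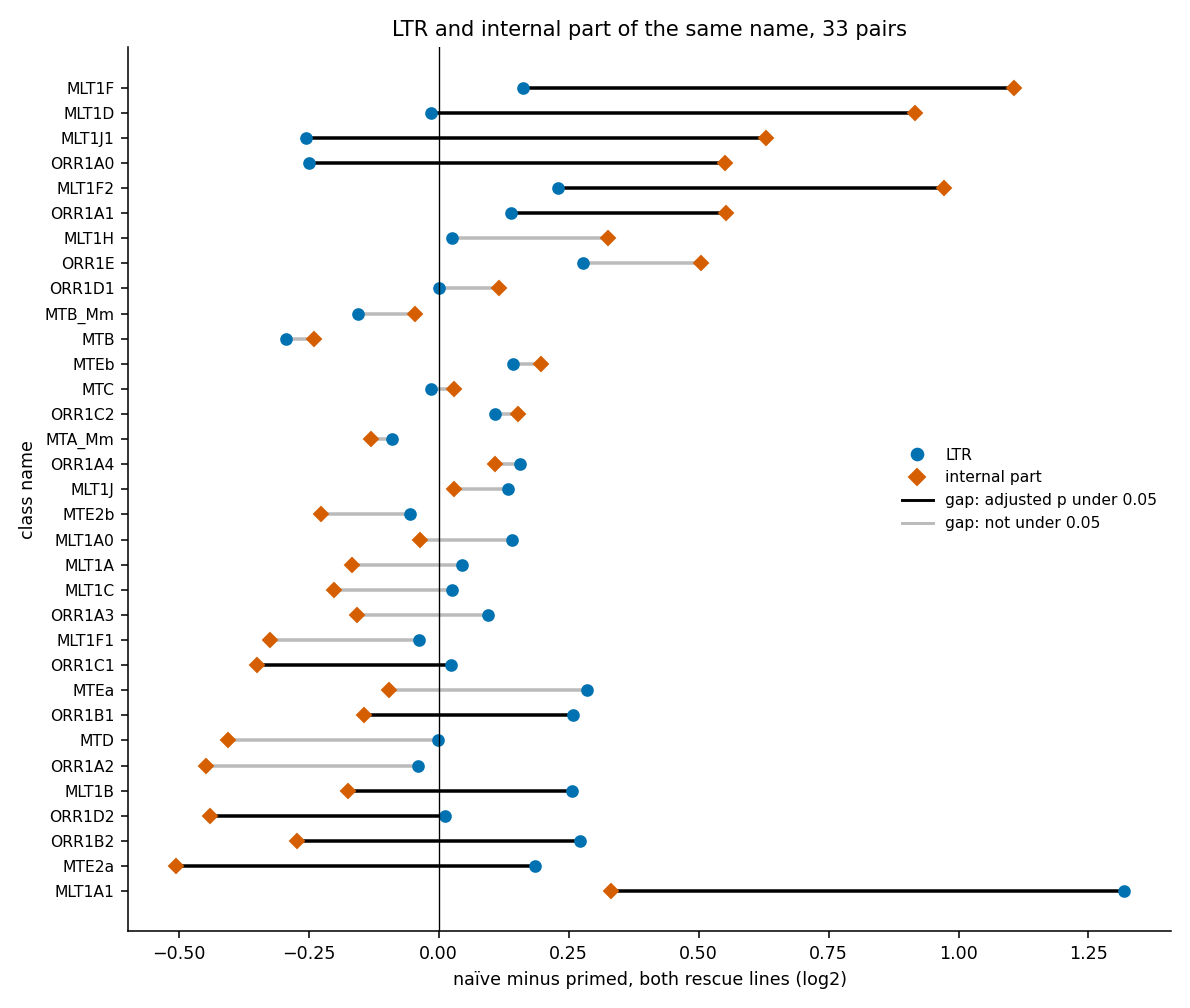
Naïve minus primed difference (log2, both rescue lines) of the LTR (circle) and the internal part (diamond) for each of 33 class names, joined by a line that is black where the gap passed an adjusted p under 0.05. In 14 names the internal part lies to the right of the LTR and in 19 to the left, with MLT1F and MLT1A1 at the ends.

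The WT and mutant TET2 rescue lines were compared in each medium to ask whether MaLR transcripts respond to TET2 catalysis when SETDB1 is depleted. In naïve ESCs 0 of 85 MaLR classes were called by limma and 0 by voom, against 0% of all repeat classes called. An unadjusted p under 0.05 (limma) was found for 0 of the 85, beside 17 of all 939 repeat classes. Differences ran from -0.38 (MLT1J-int, SE 0.32) to 0.47 (MLT1-int, SE 0.37), with a median standard error of 0.32. MLT1F-int and MLT1F stood at 0.39 each, and MLT1N2 and ORR1B2 at -0.31 and -0.29. No class had groups without overlap, against 5.22% of all classes. The subgroup leaders had differences of 0.29 for MTA_Mm-int, -0.09 for MTC, -0.09 for MTD and -0.11 for ORR1A2. With 3 libraries a group and this spread, differences of the size seen here were not detectable.

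In primed ESCs 0 of 85 classes were called by limma and 0 by voom, against 0.319% of all repeat classes. Beside 20 of all 939 repeat classes, 2 of the 85 had an unadjusted p under 0.05 (limma). These were MLT1F1-int (0.74, SE 0.32, 1 to 13 reads) and MLT1A-int (-0.79, SE 0.36, 0 to 10 reads), both with limma adjusted p = 0.996 and too few reads for a firm value. The LTR ORR1A0 came next, with levels of 10.23, 10.76 and 10.79 in primed WT and 11.07, 11.16 and 11.43 in primed mutant libraries. The groups did not overlap, as for 4 of 85 MaLR classes and 3.41% of all classes, and the difference was -0.63 (SE 0.31, unadjusted p = 0.0542 and adjusted p = 0.996 by limma). It was -0.62 without the 4 libraries numbered 3 and lay between -0.64 and -0.55 under the other scalings. In naïve ESCs the same LTR differed by -0.08 (SE 0.31), and the difference between the media, 0.55 (SE 0.44, limma adjusted p = 0.998), did not pass.

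Most MaLR classes lay slightly lower in the WT line in primed ESCs. Only 20 of 85 were higher in it, with a median of -0.12 beside -0.06 over all 939 repeat classes, and 0 of 10 ORR1A classes were higher (range -0.63 to -0.11). This count moved with the scaling and the libraries, and that of all repeat classes moved with it. As deposited, 23.5% of MaLR and 39.2% of all classes were higher. The shares were 21.2% and 37.7% with centring, 41.2% and 52.0% by voom on the recovered reads, and 48.2% and 61.0% without the libraries numbered 3, where the MaLR median was -0.01. In naïve ESCs 44.7% of MaLR and 59.7% of all classes were higher as deposited. Under the other scalings 27.1 to 35.3% of MaLR and 44.2 to 52.2% of all classes were higher, and the MaLR share was the lower one in each.

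**Figure D5:**
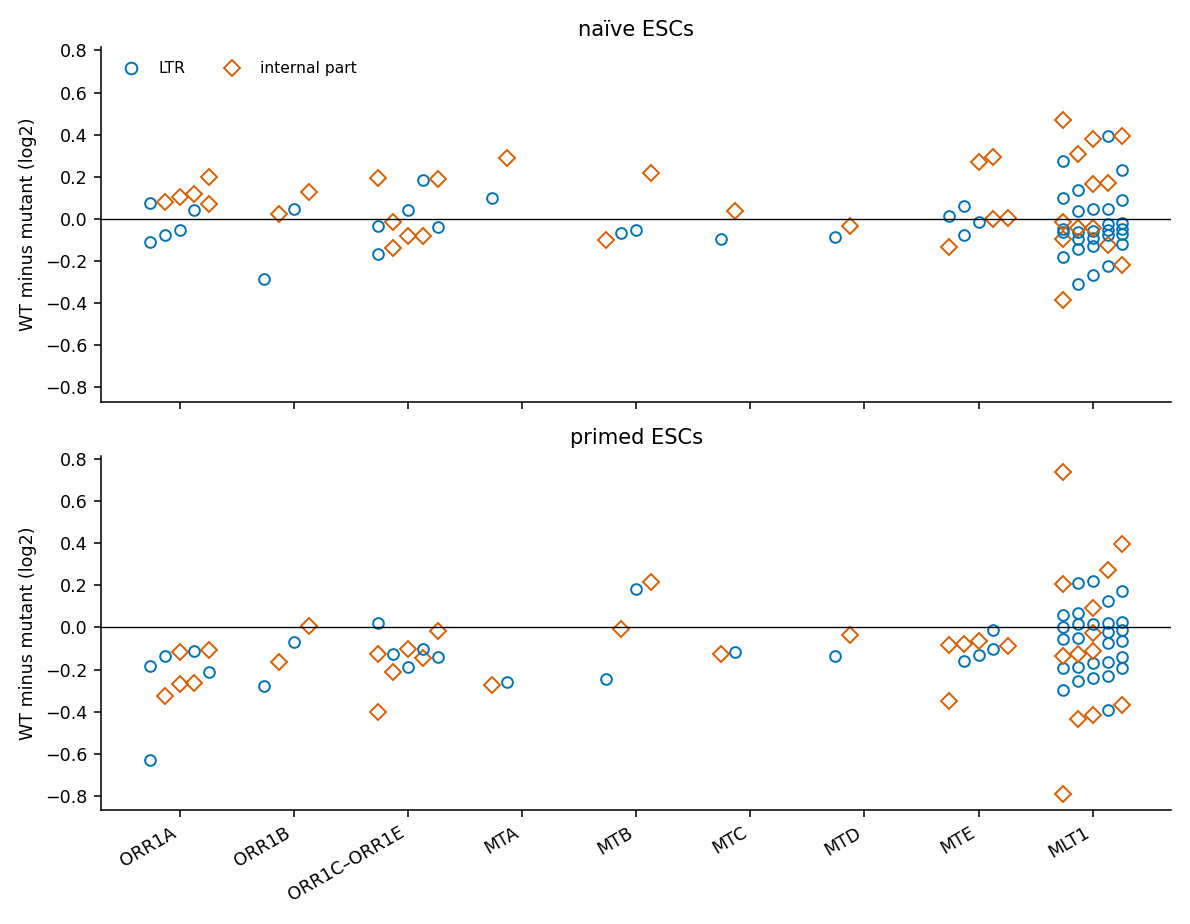
WT minus mutant difference (log2) of the 85 tested MaLR classes in naïve (upper) and primed (lower) ESCs by subgroup, with LTRs as circles and internal parts as diamonds. All symbols are open because no class passed an adjusted p under 0.05. The naïve differences lie between -0.38 and 0.47, and the ORR1A LTR at -0.63 in primed ESCs is ORR1A0.

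The difference between the media of the WT to mutant effect was tested as an interaction, and 0 of 85 classes were called by limma and 0 by voom, against 0% of all classes. MLT1N2 (-0.52) and MLT1J-int (-0.48) were among the most negative. Of the MaLR classes, MLT1F1-int had the single unadjusted p under 0.05 (-0.96, SE 0.45, limma adjusted p = 0.998), beside 4 of all 939 repeat classes. The largest positive values were 0.67 for MLT1A1-int, 0.67 for MLT1A-int and 0.62 for MTE2b-int. The median of all repeat classes in this test was 0.11 as deposited and lay between -0.03 and 0.03 under the other scalings. As deposited, 61 of 85 MaLR classes (71.8%) were above 0, beside 65.6% of all repeat classes. Under those scalings it was 45.9 to 55.3% of MaLR classes, beside 46.5 to 53.8% of all, so the MaLR share moved with that of the whole.

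The study treats 4 MaLR classes as targets of SETDB1. ORR1A1-int and ORR1A0 are described above. ORR1A3-int differed by -0.16 (SE 0.25) and MLT1E3 by -0.02 (SE 0.23) between naïve and primed ESCs, and all 4 lay between -0.14 and 0.20 between the rescue lines in naïve ESCs. Both ORR1A3-int and MLT1E3 changed sign when single libraries were left out.

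The nearest relatives of MaLRs, the ERVL classes named MERVL, MT2 and MLT2, did not pass between naïve and primed ESCs. At an adjusted p under 0.05 there were 0 of 17, against 7.24% of all repeat classes. MERVL-int, the internal part of the ERVL family that is transcribed in two-cell embryos, had levels of 10.67 ± 0.47 (SD, n = 3) in primed WT and 11.41 ± 1.53 in primed mutant libraries, a difference of -0.75 (SE 0.55), and its LTR MT2_Mm differed by -0.61, beside -0.63 for ORR1A0. None of these values passed. Of 16 IAP classes, young retroviruses under strong SETDB1 control, 9 passed as higher in naïve ESCs, against 5.01% of all repeat classes. IAPLTR1_Mm, for example, was higher by 1.37 (SE 0.20, limma adjusted p = 6.08e-05). Its WT minus mutant difference was 1.78 (SE 0.28, limma adjusted p = 0.00197) in primed ESCs and 1.00 (SE 0.28, limma adjusted p = 0.773) in naïve ESCs. For IAPEz-int it was 1.76 (SE 0.35, limma adjusted p = 0.0133) and 1.18 (SE 0.35, limma adjusted p = 0.773). In naïve ESCs 0 of the 16 IAP classes passed in this fit without a block, and 15 were higher in the WT line, against 59.7% of all repeat classes. Between the rescue lines, the paper reports a significant difference for IAPEz elements alone among ERVs.

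The genes that act on or with such elements were followed in the gene table, normalised separately from the repeats. Of 28 tested genes of LTR silencing, 15 were lower and 2 higher in naïve ESCs at an adjusted p under 0.05 (limma), against 51.8% of all 14185 genes. Dnmt3l, a cofactor of de novo DNA methylation, was named above, and the methyltransferases Dnmt3b (-2.33, SE 0.19) and Dnmt3a (-1.10, SE 0.13), the remodeller Smarcad1 (-1.19, SE 0.23) and the KRAB zinc finger corepressor Trim28 (-1.01, SE 0.13) were also lower. Setdb1 itself had -0.44 (SE 0.18, limma adjusted p = 0.0472), a call that was lost without any single library but naïve WT 3, naïve mutant 3 or primed mutant 1 (adjusted p up to 0.117). Atf7ip2 (0.91, SE 0.15) and Chaf1b (0.81, SE 0.13), a chromatin assembly factor, were higher. Between the rescue lines 0 of the 28 passed in either medium, against 0.0987% of all genes in naïve and 0.254% in primed ESCs. An unadjusted p under 0.05 (limma) was found for 9 in naïve ESCs and 4 in primed ESCs. The share of all genes at that limit is not given, so these counts are not read further.

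Oocyte genes were of interest because MT and ORR1 LTRs are transcribed there. Of 22 such genes 8 were tested, of which 4 were higher and 1 lower in naïve ESCs, against 26.4% and 25.4% of all genes. Padi6 (1.14, SE 0.16), Tcl1 (1.02, SE 0.13), Dppa3 (0.87, SE 0.21) and Ooep (0.56, SE 0.14) were higher and Zp3, a zona pellucida protein, was lower (-0.94, SE 0.19). As deposited, 0 of 44 MT and ORR1 classes passed in the same libraries, while the other scalings passed some in both directions, as given above.

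Of the genes of two-cell-like cells, 11 were tested and 0 passed as higher and 1 as lower in naïve ESCs, against 26.4% and 25.4% of all genes. Between the rescue lines in primed ESCs, Zscan4d (-1.99, SE 0.38, limma adjusted p = 0.0336) and Gm4340 (-1.32, SE 0.26, limma adjusted p = 0.0463) were lower in the WT line, against 0.254% of all genes that passed and 0.0493% that were lower. ORR1A0 and MERVL-int lay lower in the same libraries without passing, and the part of such cells in the MaLR values was not tested. Their levels were 5.38 ± 0.26 (SD, n = 3) in primed WT and 7.37 ± 1.12 in primed mutant libraries for Zscan4d, and 5.36 ± 0.15 and 6.68 ± 0.67 for Gm4340. Both belong to families of near-identical copies, so that reads may be split between them. The number of these genes that passed ran from 0 to 6 as single libraries were left out, and was 1 without the libraries numbered 3 (Zscan4d, -1.49, limma adjusted p = 0.0485).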

How the data were processed

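Poly(A) RNA-seq of 12 libraries was used. Per the labels and methods, the authors trimmed reads (Trim Galore 0.3.3), aligned them to mm9 (TopHat2 2.0.9, 1 random best position per read), counted them per gene and RepeatMasker class without strand, and deposited DESeq2 variance-stabilised values on a log2 scale. Genes and repeats were normalised separately. The transformation was inverted for read numbers, and 100% of values came out whole within 0.02. Repeat totals were 3156928 to 13718028 reads, and reads are not independent molecules.

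Groups came from the labels. All 4 were fitted together with limma 3.58.1 (R 4.3.3, intensity trend), with Benjamini-Hochberg adjustment over 939 repeat classes or 14185 genes that averaged 1 or more above the lowest value. Calls needed an adjusted p under 0.05 and, for repeats, a difference over 1. Named classes were those called, the 3 highest and 3 lowest differences per comparison, subgroup leaders, listed SETDB1 targets and LTR-internal pairs. The members, gene lists and tests were chosen with earlier results of these data known. The pair test was added after the data were seen. In simulated data for naïve minus primed over both lines, 182 of 200 classes (91%) changed by 2 (log2) among 1217 were recovered. The changed classes were drawn only from those above a minimum mean read number. All classes had the same dispersion, and no shift of whole libraries was simulated. The 91% thus does not cover classes with few reads, such as many MLT1 internal parts, or the shifts of the libraries numbered 3. Smaller changes and the WT to mutant tests were not simulated.

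Over repeat classes, same-numbered libraries deviated together between rescue lines in naïve ESCs (correlations 0.42, 0.29 and 0.49) and between media in the WT line. Primed lines (0.05, -0.02 and 0.33) and the mutant line (0.20, 0.05 and 0.20) missed the limit of 0.1 for every pair. These correlations do not register a shift common to all classes of a library, such as that of the libraries numbered 3. Python 3.11.15 with pandas 2.3.3 made the tables, and matplotlib 3.10.9 the plots.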

Additional observations from a re-analysis of the deposited data

How the results depend on the processing

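Of the values for single classes, 906 kept their direction and side of the threshold under the alternatives, 34 passed newly, 12 no longer passed and 6 turned sign. The 6 were MLT1E3 between the media (0.06 without naïve WT replicate 2, naïve mutant replicate 2 or primed WT replicate 3, 0.12 without primed mutant replicate 3, 0.047 without the libraries numbered 3, and -0.10 to 0.12 over all libraries left out) and ORR1A3-int (-0.32 to 0.058 over all libraries left out, the highest without primed mutant replicate 3). Over both lines, classes called were 2 as deposited (4.05% of all repeat classes), 3 with quantile normalization (3.94%) or without the libraries numbered 3 (5.11%), 5 after rescaling recovered reads (5.86%), by voom (6.18%) or by voom without rRNA classes (6.19%), 4 at the adjusted p alone (7.24%) and 1 to 4 with 1 library left out, and the number at the adjusted p alone rose from 4 to between 13 and 19. In the WT line, 1 called class became 2 with centring, quantile normalization or without the libraries numbered 3, 3 with rescaling, voom, voom without rRNA classes or the groups alone, 4 with the replicate block and 0 to 2 with 1 library left out. In the mutant line, 1 became 0 with no filter, no variance trend, the groups alone or an adjusted p under 0.01, 2 with centring, quantile normalization or the replicate block, 3 with rescaling, voom, voom without rRNA classes or without the libraries numbered 3, and 0 to 2 with 1 library left out. Under these settings other than leaving out 1 library, 2.34 to 5.43% of all repeat classes were called in the WT line and, at an adjusted p under 0.05, 1.56 to 6.18% in the mutant line. The causes were not tested. The block changed no other count of MaLR calls. With it 8 two-cell genes passed between the primed lines, in which the numbers did not pair the libraries by correlation. MaLR shares of repeat reads were 1.33% ± 0.943, 1.03% ± 0.393, 0.684% ± 0.203 and 1.11% ± 0.951 (SD, n = 3) in naïve WT, naïve mutant, primed WT and primed mutant libraries, and 3.70%, 4.19%, 3.84% and 4.26% without rRNA classes. Leaving out 1 library leaves 2 in a group, which are assumed to vary like the other groups. Depth limits the MLT1 internal parts most. Leaving out all libraries numbered 3 was an alternative chosen after seeing the data.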
